A study of Drosophila melanogaster with 3 samples.

Results

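The genes described here encode the proteins that make neurons excitable and let them signal at synapses, and the question was where CG31627 bound around them in whole Drosophila melanogaster white prepupae. The 35 genes were chosen by function and found by symbol. They encode 3 neuronal RNA-binding and transcription factors, 8 proteins of the vesicle release machinery, 3 active zone and adhesion proteins, 2 voltage-gated calcium and sodium channels, 8 potassium and HCN (hyperpolarization-activated) channels, 1 GABA receptor channel, 2 neuronal surface proteins and 8 enzymes and transporters of transmitters. Each symbol matched 1 gene of the Ensembl release 115 annotation. They are thus 35 of the 18164 genes on the 6 main chromosome arms, and all 35 are among the 13945 protein-coding genes there.

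Binding was mapped by chromatin immunoprecipitation and sequencing. The animals were of the strain CG31627-GFP, a transgenic line in which CG31627 carries a C-terminal GFP and is stably expressed, collected as white prepupae at the onset of metamorphosis with males and females pooled. Chromatin was sonicated to a size range of 200 to 800 bp and precipitated with an antibody to GFP (a further label gives CG31627 itself as its target). There is 1 group of 3 biological replicates, with no untagged animals and no other stage or tissue among them, and control data were not analysed here. The chromatin came from all tissues together. At a neuronal gene, binding in fewer cells and weaker binding in each cell therefore cannot be told apart. Each library has a deposited peak list that includes background on purpose, and so does the pool of the 3 libraries. The authors' cut by irreproducible discovery rate (IDR) kept the 7717 strongest peaks of the pooled list. Read counts are not part of these lists, and the depth of each library is unknown. Peaks are given by their summit and by their rank, which is the place of a peak in its list by the authors' signal value, with rank 1 the strongest. For each library the 7717 strongest peaks were used, as many as passed the IDR threshold. All positions are on dm6.

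Voltage-gated sodium, calcium and potassium channels shape the action potential and carry it to the nerve terminal. There calcium entry triggers the fusion of synaptic vesicles through the SNARE proteins syntaxin, SNAP-25 and synaptobrevin, which act with synaptotagmin, Unc13, Rop and the disassembly factor NSF. Active zone scaffolds hold the channels next to the vesicles, and transporters load each vesicle with its transmitter. Metamorphosis is the time when the larval nervous system of the fly is remodelled into that of the adult.

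The sequences under the summits that the results turn on are shown here as windows of 101 bases centred on the summit, read from the Release 6 genome on the plus strand, 5′ to 3′. Capitals mark matches to the 8 motifs searched on both strands and named with the promoter sequences; a GAGAG match on the minus strand reads CTCTC here. The elav promoter summit (X:523438-523538) is the strongest summit at a start site of these genes, and the elav intron summit (X:522577-522677) lies in the same gene. The Gad1 summit (3L:4070540-4070640) is the strongest anywhere near these genes. The eag summit (X:14950959-14951059) and the nSyb summit (3L:1639508-1639608) are strong summits upstream of these genes but close to the start site of a neighbour. The Syn summit (3R:10213631-10213731) is the stronger of a pair deep in the introns of that gene.
elav promoter: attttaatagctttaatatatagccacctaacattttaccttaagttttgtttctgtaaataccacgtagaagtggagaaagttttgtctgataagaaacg
elav intron: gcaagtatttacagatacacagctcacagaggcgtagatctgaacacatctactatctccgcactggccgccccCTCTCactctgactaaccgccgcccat
Gad1 downstream: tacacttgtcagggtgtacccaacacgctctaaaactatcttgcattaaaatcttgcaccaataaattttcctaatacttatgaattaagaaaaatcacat
eag upstream: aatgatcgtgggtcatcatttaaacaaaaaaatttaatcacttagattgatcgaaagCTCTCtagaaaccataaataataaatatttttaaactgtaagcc
nSyb upstream: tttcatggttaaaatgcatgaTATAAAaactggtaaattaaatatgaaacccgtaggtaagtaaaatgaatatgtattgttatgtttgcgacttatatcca
Syn intron: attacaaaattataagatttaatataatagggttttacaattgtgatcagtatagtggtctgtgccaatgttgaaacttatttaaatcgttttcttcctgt

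These windows were rich in A and T, with the elav intron window as the exception. The elav promoter window held 70.3% AT, the elav intron window 46.5%, the Gad1 window 68.3%, and the eag, nSyb and Syn windows 73.3% each. Over the 33 distinct IDR-thresholded summits at these genes the median was 67.3%, the same as over all 7717 summits. None of the 33 windows held the DNA replication-related element (DRE), a motif of housekeeping promoters, which was present in 1.74% of all summit windows. GAGAG was present in 4 of the 33 (12.1%, against 8.47% of all), among them the eag and elav intron windows above. The TATA box was present in 8 (24.2%, against 20.2%), among them the nSyb window above. No match was found in the elav promoter, Gad1 or Syn windows, which says only that these letters are not there.

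CG31627 was found at few start sites of these genes. An IDR-thresholded summit lay within 500 bp of a start site at 3 of the 35 genes (8.57%), namely elav, Nrx-1 and sei. The background was 22.3% of all 18164 genes and 26.4% of the protein-coding genes. In the 7717 strongest peaks of each library, 4 of the 35 genes (11.4%) had a promoter summit in replicate 1, against a background of 26.4%. Replicate 2 had 3 genes (8.57%) against 24.2%, and replicate 3 had 4 (11.4%) against 27.5%. The mean was 10.5% ± 1.65 (SD, n = 3), and 26.1% ± 1.69 (SD, n = 3) for protein-coding genes. All 3 libraries gave these genes a lower share than protein-coding genes, and the ranges did not overlap. The median gene of the 35 has 2 start sites, against 1 for protein-coding genes, and so has more windows in which a summit could fall. The design has 1 group and the genes were chosen with results known, so no test was made of these shares.

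elav, the gene of a neuronal RNA-binding protein that serves as the standard marker of fly neurons (FBgn0260400, X from 509235 to 523226, minus strand), carried the strongest of these promoter peaks. The peak (X from 523293 to 523674) ranked 267 of 7717 in the pooled list, and its counterparts ranked 245, 300 and 281 in replicates 1, 2 and 3. Its summit lay 262 bp upstream of the elav start site, and 279, 262 and 258 bp from it in the 3 libraries. The position and the rank thus stayed close together in all 3 libraries. The elav start site is also that of the non-coding RNA gene lncRNA:enrr, and the summit lies in an intron of the gene arg, so the peak cannot be assigned to elav alone. A further peak lay inside elav, 599 bp downstream of the start site in its intron, and ranked 1237 in the pooled list and 1250, 1407 and 1182 in the libraries.

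Nrx-1, the gene of the synaptic adhesion protein neurexin (FBgn0038975, 3R from 22468512 to 22486969), had a peak from 22469227 to 22469414. Its summit lay 147 bp downstream of a start site, in an annotated UTR of Nrx-1, and ranked 2370 in the pooled list and 2240, 1770 and 3307 in replicates 1, 2 and 3. The nearest start site of another gene, CG5377, lay 1171 bp from this summit. In replicates 1 and 2 the Nrx-1 promoter summit lay 105 and 107 bp downstream of a start site. In replicate 3 it lay 148 bp upstream of a different start site of Nrx-1, so the peak cannot be assigned to a single start site. sei, the gene of the fly ERG-type potassium channel whose mutants have heat-induced seizures (FBgn0003353, 2R from 24047411 to 24053035), had a peak from 24048890 to 24049293. The summit lay 111 bp upstream of the second of its 2 start sites, in an intron of sei, and 189 bp from the start site of gammaSnap1, a gene of the SNAP family of SNARE disassembly adaptors. It ranked 4113 in the pooled list and 3531, 6563 and 4106 in the libraries, the weakest of the 3 promoter peaks. Over all 3223 IDR-thresholded promoter summits of the genome the median rank was 3546 and the median distance 121 bp, so elav and Nrx-1 ranked above that median and sei below it.

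**Figure D1:**
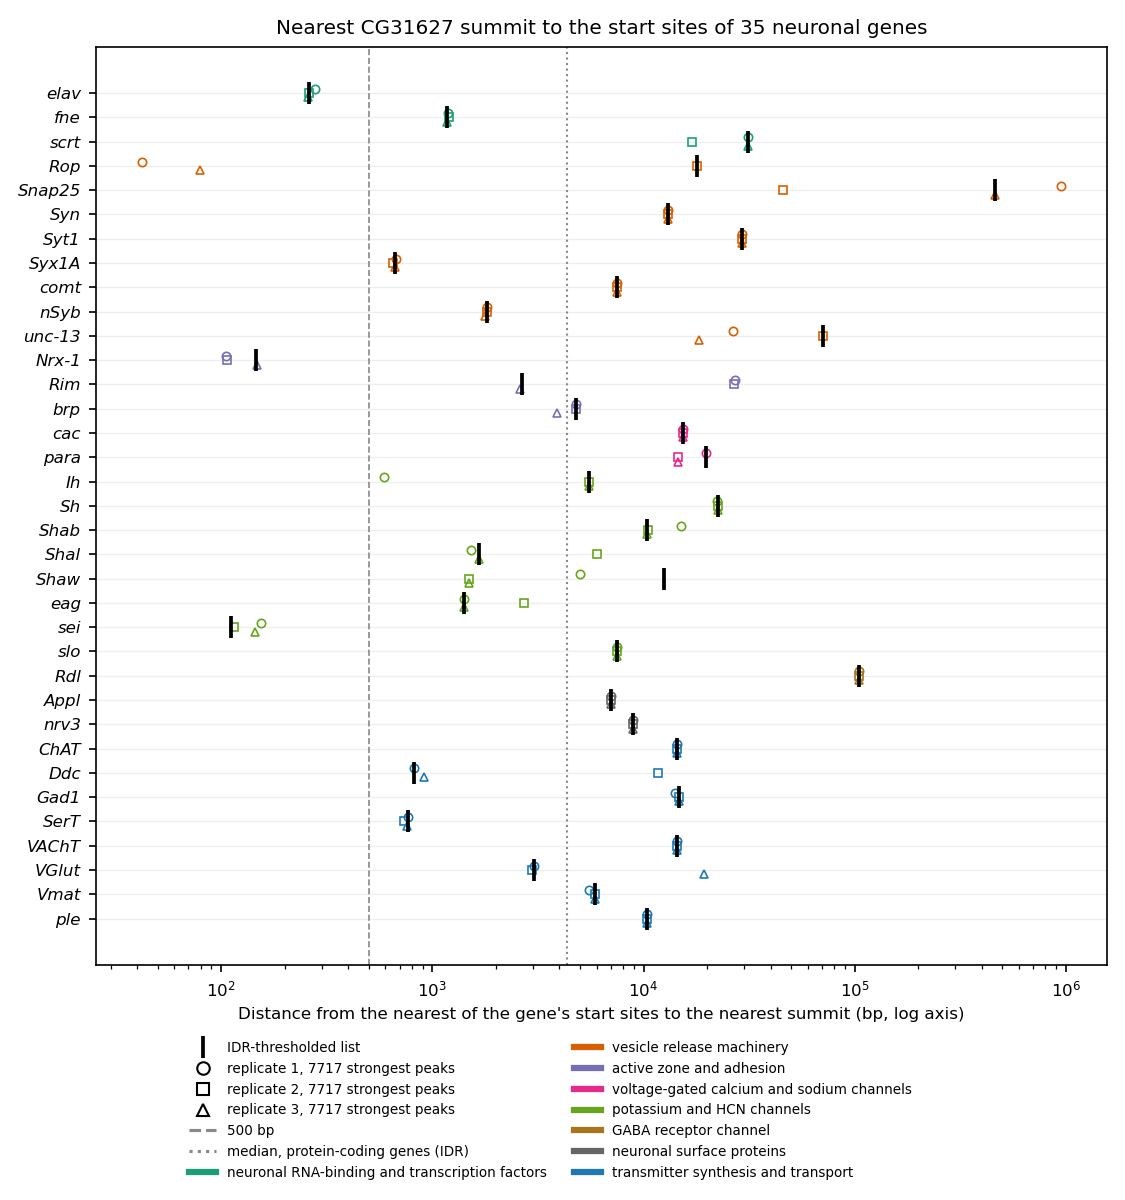
Distance in bp, on a log axis, from the start sites of each of the 35 genes to the nearest CG31627 summit, in the IDR-thresholded list (black bars) and in the 7717 strongest peaks of replicates 1, 2 and 3 (circles, squares and triangles, coloured by role). Black bars lie left of the dashed line at 500 bp for elav, Nrx-1 and sei, and the dotted line is the median of protein-coding genes, 4351 bp.

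The nearest IDR-thresholded summit was a median of 7496 bp from the start sites of the 35 genes, against 4351 bp for protein-coding genes. It was farthest for Snap25, the gene of a SNARE protein, at 463071 bp, then for Rdl, the gene of the GABA-gated chloride channel, at 104535 bp, and for unc-13, the gene of the vesicle priming factor, at 70639 bp. For Rdl the distance was much the same in the libraries, at 104533, 104568 and 104609 bp. For Snap25 it was 948322, 45815 and 462982 bp, and for unc-13 26418, 70648 and 18399 bp, so these distances turned on the library. The unc-13 promoter windows held 76.3% unique 31-mers, and the Snap25 introns 53.2%. Their part in these values was not tested.

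Below the IDR threshold, peaks lay at the start sites of more of these genes. In the pooled list, 9 of the 35 genes (25.7%) had a promoter summit with a q value of 0.05 or less, against a background of 36.7%. With background peaks included the count was 18 (51.4%) against 48.5%, a share near that of protein-coding genes. The 6 genes added at a q value of 0.05 or less were Rop, comt, Appl, eag, Ddc and Syt1. Rop, which encodes the Sec1/Munc18 protein that binds syntaxin, came nearest to the threshold. Its pooled summit, 36 bp upstream of the start site, ranked 8456 with a q value of 0.000414. It ranked 7207 in replicate 1 and 7584 in replicate 3, within the 7717 strongest of both, and replicate 2 listed no peak there. The start site of Ras64B, a Ras family gene, lies 80 bp from that of Rop.

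comt, the gene of the NSF ATPase that takes SNARE complexes apart, had a promoter summit in all 3 library lists, at ranks 9909, 8347 and 8945 in replicates 1, 2 and 3. That is just outside the strongest peaks of each, and in the pooled list it ranked 9166. Ddc, the gene of dopa decarboxylase, which makes dopamine and serotonin and also serves the hardening of cuticle, ranked 13818, 8252 and 11342 in the libraries, and 11476 in the pool. Appl, the fly homologue of the amyloid precursor protein, ranked 14544, 25248 and 10387 in the libraries, and 10747 in the pool. eag, a potassium channel gene, ranked 11461 in the pool and was listed in replicate 3 alone, at 12692. Syt1, which encodes the calcium sensor of release, ranked 12824 in the pool, 17229 in replicate 1 and 15226 in replicate 3. None of these 5 lay among the 7717 strongest peaks of any library. Over all the library lists, background included, 8 genes (22.9%, against a background of 32.4%) had a promoter summit in every library, namely elav, fne, comt, Nrx-1, sei, Appl, ple and Ddc. Another 8 (22.9%, against 35.4%) had none in any, namely Snap25, Rim, cac, VGlut, VAChT, ChAT, Gad1 and Vmat, of which the last 5 are genes of transmitter synthesis and transport.

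The introns of these genes held few summits for their length. An intron summit, inside the gene but outside its exons and over 500 bp from its own start sites, was found at 5 of the 35 genes (14.3%), elav, fne, Syn, Shal and ChAT, against a background of 9.39% of protein-coding genes. In the 3858 strongest peaks the count was 2 (5.71%) against 6.22%, a share near the background. These genes are long, however, with a median of 11.3 kb of intron against 0.131 kb. Among the 18 with 10 kb or more of intron, 4 had a summit (22.2%), against 54.4% of the 1312 protein-coding genes of that length, a comparison chosen after the data were seen. Of the 11 genes with 20 to 50 kb of intron 3 had a summit, where 56.2% of protein-coding genes did. The 2 with 50 to 100 kb had none, against 68.2%, and the 2 with 100 to 300 kb had none, against 67.2%.

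Counted by length, the 880 kb of introns of the 35 genes held 7 IDR-thresholded summits, or 0.796 per 100 kb. The 55936 kb of introns of all protein-coding genes held 3177, or 5.68 per 100 kb, which makes a ratio of 0.14. The libraries gave 6, 8 and 7 summits in replicates 1, 2 and 3, with ratios of 0.12, 0.156 and 0.144 and a mean of 0.14 ± 0.0183 (SD, n = 3). All 3 ratios lay well below 1. Unique 31-mers covered 82.8% of the introns of these genes and 88.7% of those of protein-coding genes, and over unique bases alone the ratio was 0.15. The genes without an intron summit include Snap25 with 222374 bp of intron, the Shaker potassium channel gene Sh with 111734 bp, and para, which encodes the main neuronal sodium channel, with 60767 bp. They also include the potassium channel genes Shab and eag, Appl, and cac, which encodes the presynaptic calcium channel.

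**Figure D2:**
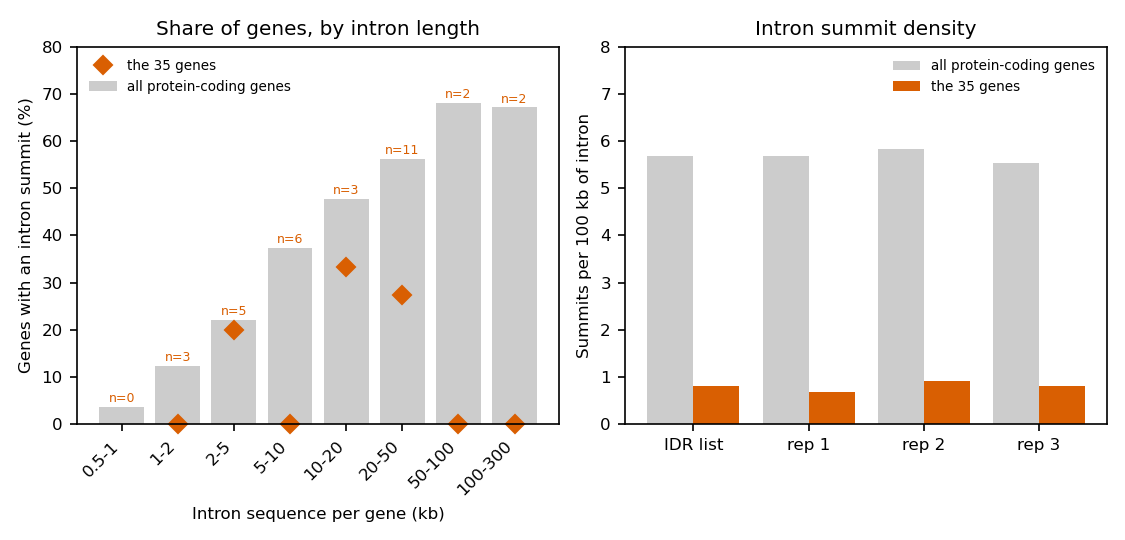
Left, percentage of genes with an IDR-thresholded intron summit by the length of intron per gene in kb, for all protein-coding genes (grey bars) and for the 35 genes (orange diamonds, with the number of the 35 in each bin); 3 of the 11 with 20 to 50 kb had a summit, against 56.2%. Right, summits per 100 kb of intron for both sets in the IDR-thresholded list and in each library, with 0.796 against 5.68 in the IDR-thresholded list.

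Of the intron summits, the strongest was that of elav given above, and the next was that of ChAT. ChAT encodes choline acetyltransferase, which makes acetylcholine, and VAChT, the gene of the transporter that loads acetylcholine into vesicles, lies within it and shares its start site. The summit (peak on 3R from 18719876 to 18720045) lay 14482 bp downstream of that start site and 1067 bp beyond the end of VAChT, and ranked 3460 in the pool and 2920, 4427 and 3394 in the libraries. It also lies 360 bp from the start site of lncRNA:CR46265, in an exon of that gene. Syn, which encodes the vesicle protein synapsin, had summits 13088 and 22992 bp downstream of its start site. The nearer ranked 5779, 4700 and 7395 in replicates 1, 2 and 3, and the farther 4003, 4005 and 4855. The farther one lies 674 bp from the start site of Timp, a metalloproteinase inhibitor gene nested in Syn. All of these were among the 7717 strongest peaks of every library.

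The remaining intron summits were weaker and did not all recur. fne, which encodes an RNA-binding protein of the ELAV family, had a summit 1179 bp upstream of one of its 4 start sites that ranked 7593, 7647 and 6493 in the libraries, and another 6188 bp downstream that ranked 12238, 7045 and 5236. Shal, the gene of a potassium channel that carries A-type current, had a summit 8734 bp downstream of its start site with ranks of 5959, 6514 and 12831. The replicate with the low rank differed, being replicate 1 for fne and replicate 3 for Shal. No IDR-thresholded summit lay in an exon of any of the 35 genes, apart from the promoter summit of Nrx-1 in its UTR. The background share for exons was not counted, so this absence cannot be read as particular to these genes.

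Within 5 kb outside their ends, 14 of the 35 genes (40%) had an IDR-thresholded summit, against a background of 46.4%. The 14 genes had 24 such summits, 13 upstream and 11 downstream. Of these 24, 11 (45.8%) lay within 500 bp of the start site of another gene, protein-coding in 9 cases, against 6731 of 10208 (65.9%) for protein-coding genes. Counting flank summits over 500 bp from every other gene's start site, 10 of the 35 genes (28.6%) had one, against 18.5% of protein-coding genes. With all flank summits of the pooled list at a q value of 0.05 or less, the count was 22 (62.9%) against 60.9%. The share thus lay above the background under the first of these choices and near it under the second. It lay below the background with all flank summits of the IDR-thresholded list. With a flank of 2 kb, 7 genes (20%) had a summit, against 22.6%. The strongest summit near any of the genes lay 3487 bp downstream of the end of Gad1, which encodes the enzyme that makes GABA. Its peak (3L from 4070427 to 4070868) ranked 71 in the pool and 69, 57 and 75 in the libraries. It lies in an intron of wit, a type II BMP receptor gene, 1101 bp from the start site of CG32259, and its sequence is among those above. A further summit in wit, 2898 bp from the end of Gad1, ranked 1860 in the pool and 1724, 922 and 1170 in the libraries. Gad1 itself had no promoter summit in any library list.

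Several other summits, most of them strong, lay nearer to the start site of a neighbour than to that of one of these genes. Upstream of eag, 3 summits lay between 1420 and 4468 bp from its start site. The farthest, whose sequence is shown above, ranked 131 in the pool and 142, 216 and 86 in the libraries, and lies 260 bp from the start site of pdgy, in an intron of that gene. The middle one, 588 bp from the pdgy start site, ranked 1158, 898 and 1221, and the nearest to eag ranked 5571, 9542 and 2978 and lies 360 bp from lncRNA:CR44831. Syx1A, the syntaxin gene, had a summit 3514 bp upstream with ranks of 632, 904 and 471, which lies 59 bp from the start site of CG18428. nSyb, the neuronal synaptobrevin gene, had a summit 1806 bp upstream with ranks of 878, 518 and 848, which lies 153 bp from the start site of Bgb, the gene of a partner of Runx proteins. In each of these cases the neighbour was nearer to the summit than the synaptic gene was.

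The 4 upstream summits that lay nearer to the gene itself than to any neighbour ranked between 4429 and 7634 in the pool. At Syx1A a summit 665 bp upstream of its start site, in an intron of eIF4EHP, ranked 4475, 4577 and 4333 in replicates 1, 2 and 3. Ddc had a summit 818 bp upstream with ranks of 7669, 9805 and 6515, and VGlut, the vesicular glutamate transporter gene, had a summit 3045 bp upstream with ranks of 6806, 7163 and 8377. brp, the gene of the active zone scaffold Bruchpilot, had a summit 4798 bp upstream, in an intron of Wnt2, with ranks of 5964, 5015 and 4521. The start site of Wnt2 lies almost as near to it, at 4801 bp. The Syx1A and brp summits were among the 7717 strongest of every library, and those of Ddc and VGlut were outside in 1 of them.

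The rest of the flank summits had these positions. For sei, a summit 2058 bp upstream ranked 731, 1036 and 795 in an intron of the cofilin gene tsr, and a summit downstream ranked 2447, 3779 and 2705, 27 bp from the start site of the translation factor gene eEF5. SerT, the serotonin transporter gene, had a summit 769 bp upstream, 27 bp from CG45069, with ranks of 5637, 5965 and 7532, and one downstream, 93 bp from the kinase gene Slik, with ranks of 4276, 3086 and 3214. ple, the tyrosine hydroxylase gene of dopamine synthesis, had a summit 4175 bp beyond its end with ranks of 3571, 3893 and 1951. Shal had a summit upstream, 28 bp from CG9330, with ranks of 7087, 12757 and 4826, and a pair of summits near the limit of its downstream flank that ranked 2013 and 3808 in the pool. The downstream summit of Syx1A, in eIF4EHP, ranked 1270, 1135 and 1295. Those of nSyb (269 bp from GC) and Nrx-1 (69 bp from the chaperonin gene CCT1), and the upstream summit of the active zone gene Rim (601 bp from the RNA-binding protein gene cpo), ranked below 7717 in at least 1 library. The Rim summit ranked 7855, 19099 and 4963, so it was among the strongest peaks of replicate 3 alone.

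**Figure D3:**
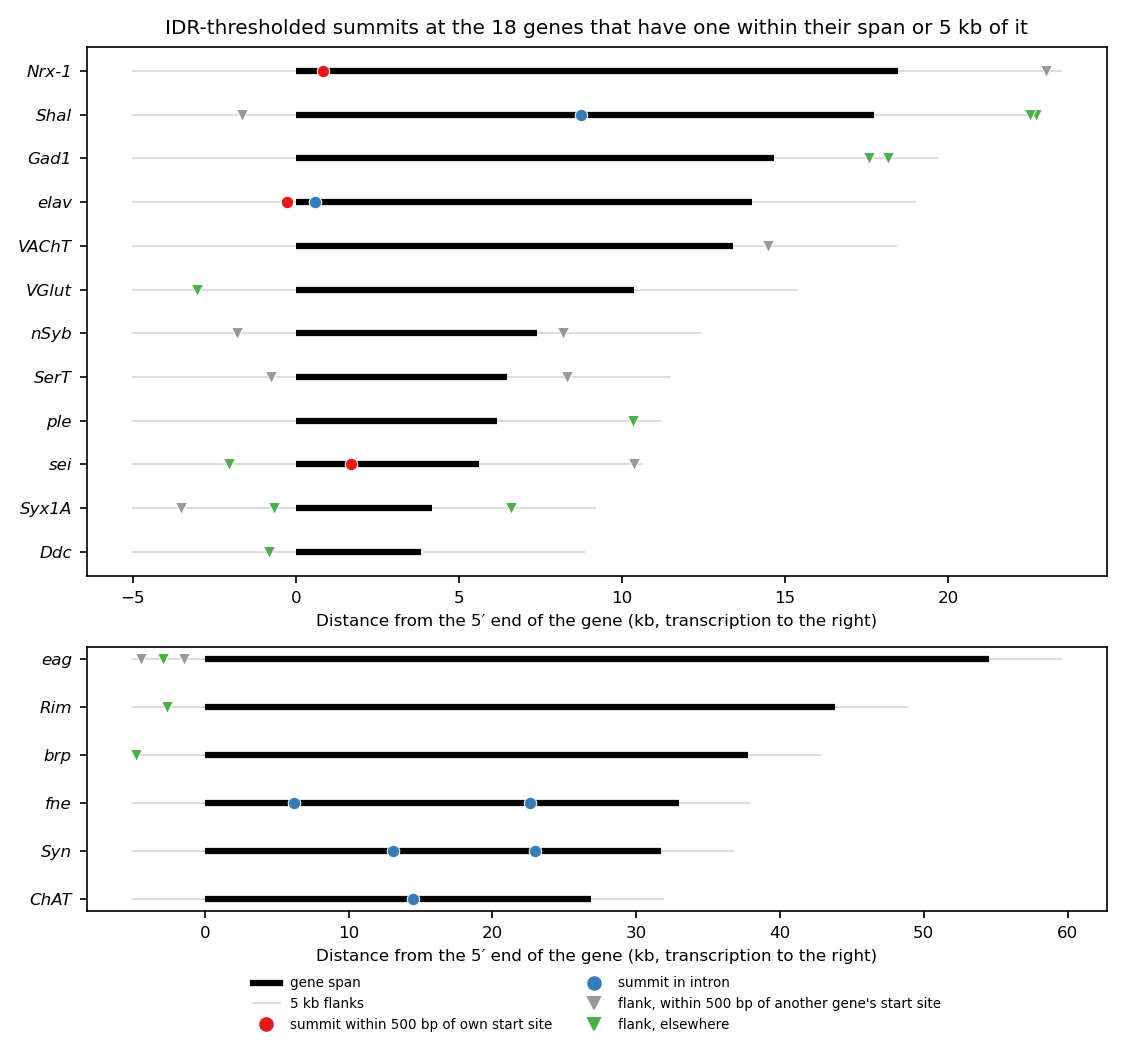
IDR-thresholded summits drawn to scale along the 18 genes that have one, with the distance in kb from the 5′ end of each gene and transcription to the right (black, gene span; grey line, flanks of 5 kb). Red circles mark summits within 500 bp of the gene's own start sites (elav, Nrx-1 and sei), blue circles intron summits, and triangles flank summits, grey where another gene's start site lies within 500 bp (11 of 24) and green elsewhere.

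Taking start sites, introns, exons and flanks, 18 of the 35 genes (51.4%) had an IDR-thresholded summit, against a background of 59.7%. Of the 18, 11 had summits in the flanks only, a count that was not made for protein-coding genes. The 17 genes with none were 5 of the 8 genes of vesicle release, Syt1, Snap25, unc-13, Rop and comt; both calcium and sodium channel genes, cac and para; and 5 of the 8 potassium and HCN channel genes, Sh, Shab, Shaw, slo and Ih. The others were Rdl, the surface protein genes Appl and nrv3, the zinc finger factor gene scrt, and the vesicular monoamine transporter gene Vmat. All 3 genes of the active zone and adhesion and 7 of the 8 genes of transmitter synthesis and transport had a summit, which for 6 of these 7 lay in the flanks. VAChT and ChAT are counted here for the same summit. The roles hold 1 to 8 genes each, and differences between them were not tested.

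All 3 genes with a promoter summit have a start site close to that of another gene, though for Nrx-1 it is not the start site at the summit. Of the 35 genes, 11 (31.4%) have a start site within 500 bp of that of another gene, and 3 of these 11 (27.3%) had a promoter summit. The other 24 (68.6%) had 0. VAChT and ChAT, which share a start site, are both among the 11. Among protein-coding genes, 4804 (34.4%) have such a neighbour and 45.9% of them had a promoter summit, while 16.1% of the 9141 without one did. The share of genes with a close neighbour was thus similar in both sets, and the share with a promoter summit was lower for the 35 genes in both classes.

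Other neuronal and glial genes were counted from 7 further lists of 151 genes together, also drawn up with earlier results known. Of these, 31 (20.5%) had a promoter summit, with 19% ± 1.53 (SD, n = 3) over the libraries, against 26.4% of protein-coding genes. Leaving out a replicate kept the IDR-thresholded peaks that overlapped the strongest peaks of both other libraries, so these counts could only fall. A peak lost without replicate 1 thus overlapped no peak among the strongest of replicate 2 or of replicate 3. Without replicate 1 the count was 20 (13.2%), against 21.8% of protein-coding genes. Without replicate 2 it was 24 (15.9%, against 23.3%), and without replicate 3 it was 22 (14.6%, against 21.4%). The lists differed widely. None of 35 genes of transmitter receptors had a promoter summit, in the IDR-thresholded list, in the pooled list at a q value of 0.05 or less, or in the strongest peaks of any library, and with a window of 1000 bp 1 had one. Among genes of the synaptic vesicle cycle 8 of 22 (36.4%) had one, but 4 without replicate 1, 7 without replicate 2 and 4 without replicate 3. AP-2alpha (rank 259), an endocytic adaptor subunit, was the strongest, and ebi lies nearer to its summit. Csp, a chaperone of vesicles, Arl8, a GTPase of axonal transport, and AP-2sigma, another adaptor subunit, followed at ranks 4477, 4656 and 5115; CG9667 is nearer than Arl8 and Idi nearer than AP-2sigma.

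Genes of the active zone and synaptic adhesion had 4 of 16 (25%), but 1 without replicate 1, 2 or 3 in turn. They were Lar, a receptor phosphatase (rank 2555), the teneurin gene Ten-a (6425), Spn (7198) and Liprin-alpha (7264), an active zone scaffold to whose summit homer is nearer. Among other ion channels 5 of 22 (22.7%) had one. NaCP60E, a gene of the sodium channel family, came first, with a summit (rank 1398) that is nearer to RpL41. The potassium channel genes Irk1 (2264, with the start site of CG46310 at the same distance) and Hk (2867, a beta subunit) followed. The chloride channel gene ClC-a (3842) came after them. Among neuropeptide genes and those of neuropeptide processing 7 of 25 (28%) had one. The processing enzyme genes Pal1 (rank 35) and amon (rank 294) had the strongest peaks, ahead of the neuropeptide genes amn (1403) and sNPF (1625). Pal1 ranked 27, 30 and 44 in replicates 1, 2 and 3, and amon 329, 198 and 386. Among neuronal RNA-binding and transcription factors 4 of 19 (21.1%) had one, with lola (rank 241) first and Rbp6, Imp and nerfin-1 after it. Among glial genes 3 of 12 (25%) had one, moody (rank 599), a receptor of the blood-brain barrier, loco and wrapper, to whose summit lncRNA:CR45327 is nearer.

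Intron summits were counted in these lists as well, against the background of 9.39% of protein-coding genes and 54.4% of those with 10 kb or more of intron. They lay at 11 of the 19 genes of neuronal RNA-binding and transcription factors (57.9%), and at 9 of the 13 of these with 10 kb or more. They lay at 9 of the 22 genes of other ion channels (40.9%; 7 of the 10 long ones) and at 7 of the 16 of the active zone and adhesion (43.8%; 7 of the 15 long ones). Of the 35 transmitter receptor genes 4 had one (11.4%), and 2 of the 18 long ones. None lay at the 22 genes of the vesicle cycle, 6 of them long, or at the 25 of neuropeptides, 3 of them long, and 3 of the 12 glial genes (25%), none of them long, had one. These counts are small and were not tested, and intron length was not otherwise matched.

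**Figure D4:**
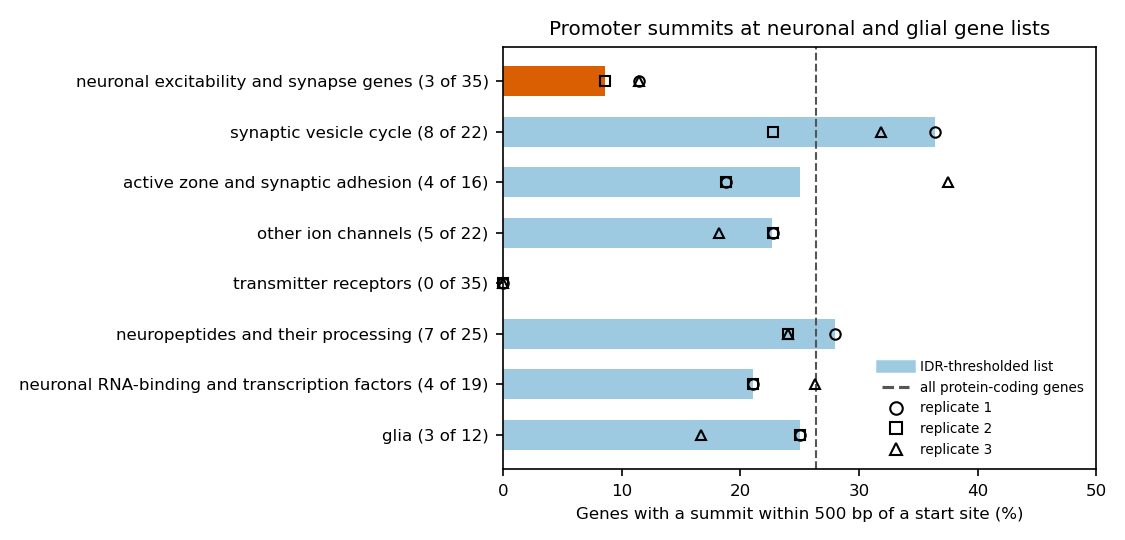
Percentage of genes with a summit within 500 bp of a start site for the 35 genes (orange bar) and the 7 further lists (blue bars), in the IDR-thresholded list (bars) and in the 7717 strongest peaks of each library (circles, squares and triangles). The dashed line is the share of protein-coding genes, 26.4%; the 35 genes stand at 8.57% and the transmitter receptor genes at 0.

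The promoters of the 35 genes held less A and T at the median than other promoters. Over the 301 bases from 250 before to 50 after the start of each gene's canonical transcript, the median AT content was 49.2% (range 36.5% to 70.8%). It was 61.8% for 13944 protein-coding genes and 62.8% for the 3681 of them with a promoter summit. GAGAG, the motif of GAGA factor, was present on either strand in 22 of the 35 (62.9%), against 30.3% of protein-coding genes and 29% of those with a promoter summit. The TATA box, TATAAA, was present in 9 (25.7%), against 45.3% and 44.7%. Of the motifs of housekeeping promoters, the BEAF-32 core CGATA was present in 11 (31.4%), against 47% and 55.6%, and Ohler motif 1, GGTCACAC, in 1 (2.86%), against 7.54% and 11.3%. Ohler motif 7, CANCNCTA, was present in 5 (14.3%), against 15.4% and 26.4%, and the DRE, TATCGATA, in 3 (8.57%), against 8.94% and 13.8%. Every DRE match is also a BEAF-32 core match, so these counts overlap. VAChT and ChAT share a promoter sequence, which is counted for both genes under GAGAG and the BEAF-32 core. The E-box CAGCTG was present in 6 (17.1%), against 17.9% and 22.4%, and the E-box CACGTG in 3 (8.57%), against 4.29% and 4.89%.

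The 250 bases before the start sites of Rim and elav are shown because they held the most GAGAG matches of the 35 genes, 12 and 6, while Rim had no promoter summit in any library list and elav had the strongest. They are on the minus strand of dm6, at 3R:17916579-17916828 for Rim and X:523227-523476 for elav, printed 5′ to 3′ in the direction of transcription, with capitals marking GAGAG on either strand. The elav summit lies just beyond the 5′ end of the stretch printed for elav.
Rim upstream: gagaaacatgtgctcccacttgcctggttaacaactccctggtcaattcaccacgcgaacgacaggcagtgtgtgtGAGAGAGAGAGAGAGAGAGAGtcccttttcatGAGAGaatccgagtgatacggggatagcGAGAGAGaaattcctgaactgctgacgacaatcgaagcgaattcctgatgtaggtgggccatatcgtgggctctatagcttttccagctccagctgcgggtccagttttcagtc
elav upstream: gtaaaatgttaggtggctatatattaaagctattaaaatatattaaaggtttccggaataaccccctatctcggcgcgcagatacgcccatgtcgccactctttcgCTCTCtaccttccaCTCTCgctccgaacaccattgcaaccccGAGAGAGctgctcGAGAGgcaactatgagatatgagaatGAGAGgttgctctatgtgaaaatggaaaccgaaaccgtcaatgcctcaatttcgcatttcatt

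In Rim most of the matches overlap in an unbroken GA repeat, and in elav they are spread over several places nearer to the start site. The GAGAG matches of elav therefore do not lie at the summit itself, and the elav promoter summit window shown earlier held none of the 8 motifs. The elav peak (X from 523293 to 523674) does reach into the printed stretch and covers most of these matches. Whether they play a part in the peak was not tested. Both elav and sei are among the 22 genes with GAGAG, and Nrx-1 is not. For sei the window searched is that of its canonical start site, and not of the start site with the summit.

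**Figure D5:**
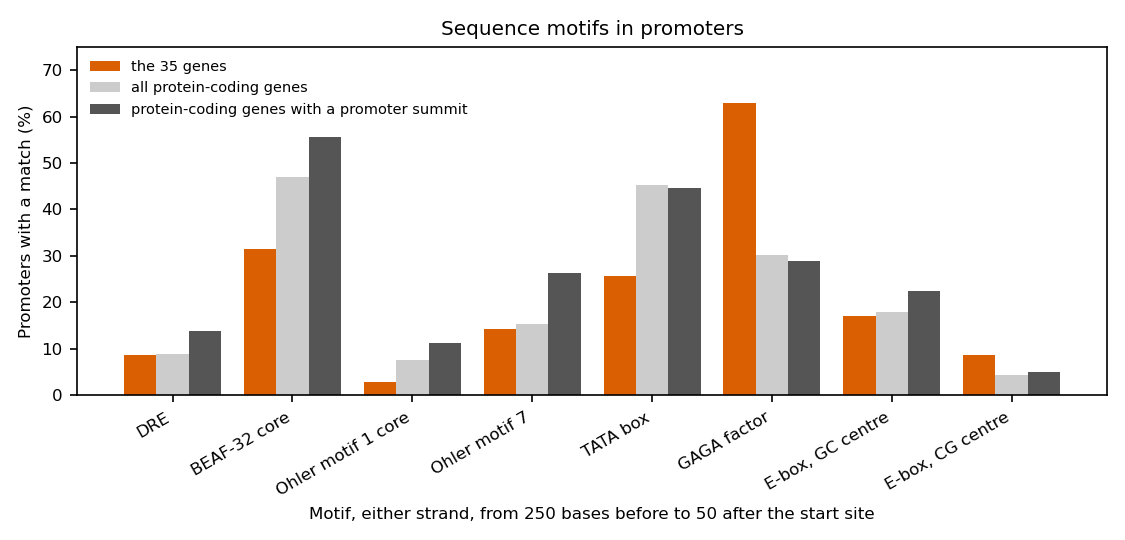
Percentage of promoters with a match to each of 8 motifs on either strand, for the 35 genes (orange), all protein-coding genes (light grey) and protein-coding genes with a promoter summit (dark grey). GAGA factor stands at 62.9% for the 35 genes against 30.3% and 29%, and the TATA box at 25.7% against 45.3% and 44.7%.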

How the data were processed

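CG31627 was mapped by ChIP-seq in 3 biological replicates of 1 group, so no groups were compared and no p-value was computed. The files are peak lists in narrowPeak format, 5 of them on dm6: 1 for each library, 1 pooled and 1 thresholded on IDR. Signal values are those the authors deposited, their scale is not stated, and they served only to rank peaks within a list. The q value was deposited as −log10 and turned back into a q value here. For the aligner and the peak caller, names and versions were not given in the sources used here. Without read counts, neither depth nor counting intervals are given. Lists on dm3 and signal tracks were not used. The 1 peak on chromosome Y, in replicate 2, was left out.

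Summits were placed with Python 3.11.15 and numpy 2.4.6 against the Ensembl release 115 annotation (BDGP6.54) on 6 arms, whose lengths match the Release 6 sequence. A promoter summit lay within 500 bp of any start site of the gene, an intron summit elsewhere in the gene outside its exons, and a flank summit within 5 kb of its ends. A library's counterpart of an IDR-thresholded summit was its strongest summit within 200 bp, so neighbouring summits can share a counterpart. Placement was tested on simulated summits. Motifs were searched on both strands. The share of unique 31-mers, with a minimum of 80% for promoter windows, stood for mappability.

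The genes, the 7 further lists and the tests were chosen with earlier results of these data known. Every gene of the 35 was accounted for. Of each further list, up to 4 genes with the strongest promoter peak were named, with genes nearer to a summit. Alternatives were other windows, flanks and peak lists, and leaving out each replicate (IDR-thresholded peaks overlapping the strongest peaks of both other libraries). The comparison with genes of 10 kb or more of intron, and that with unique promoter windows, were added after seeing the data.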

Additional observations from a re-analysis of the deposited data

How the results depend on the processing

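Of the 35 genes, 3 had a promoter summit, and the count was 6 with a window of 1000 bp, 9 in the pooled list at a q value of 0.05 or less and 18 in the whole pooled list (17.1%, 25.7% and 51.4%, against 30.4%, 36.7% and 48.5% of protein-coding genes). It was 2 with 250 bp (5.71% against 21.1%). With replicate 1, 2 or 3 left out in turn it stayed at 3 (8.57%), against 21.8%, 23.3% and 21.4% of protein-coding genes. The share of protein-coding genes thus fell from 26.4% while that of the 35 genes did not, so the gap between them was smaller. With unique promoter windows alone the count was 3 of 34 (8.82% against 27.2%). Counting only summits at least as near to the gene as to any other gene, it was 3 (8.57% against 19.4%). With peak intervals in place of summits it was 4 (11.4% against 28.1%). The mean count per library, 3.67, was 2.67 with 250 bp, 6.67 with 1000 bp, 8.67 at a q value of 0.05 or less and 17.7 with all peaks (7.62%, 19%, 24.8% and 50.5%, against 20.8%, 30.1%, 34.6% and 48%). Genes with an intron summit numbered 5, but 2 in the 3858 strongest peaks (5.71% against 6.22%), where the share was near the background. The density ratio of 0.14 was 0.0812 in the 3858 strongest peaks and 0.0928 in the pooled list at a q value of 0.05 or less, and 0.118 to 0.145 with each replicate left out. Genes with a flank summit numbered 14, but 7 with a flank of 2 kb, 9 in the 3858 strongest peaks and 22 in the pooled list at a q value of 0.05 or less (20%, 25.7% and 62.9%, against 22.6%, 29.8% and 60.9%). Without flank summits near another gene's start site it was 10 (28.6% against 18.5%). In this setting the share turned from below to above the background, and at a q value of 0.05 or less it was near the background. The 31 genes of the further lists were 47 in the pooled list at a q value of 0.05 or less (31.1% against 36.7%) and 20 to 24 with each replicate left out (13.2% to 15.9%, against 21.4% to 23.3%). No paired analysis was possible because there is 1 group. Fewer or more peaks enter each of these lists by construction. The lists hold no read counts, so what depth limits cannot be stated.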
